A study of Mus musculus with 12 samples.

Results

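The p53 target genes studied here are 38 genes that the transcription factor p53 is known to switch on or that are regularly counted in its response. They were chosen by name, with earlier results of these data known. For 37 of the 38 a probe set mapped to a single gene, out of 19938 genes measured in this way, and each of the 37 had 1 probe set. Fdxr, a ferredoxin reductase, is not analysed here, and neither are Trp53, which encodes p53 itself, and Cdkn1a, the arrest gene p21.

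Total RNA of mouse cells was hybridised to 12 whole-transcript arrays, 3 for each of 4 groups. ESC stands for V6.5, an established line of embryonic stem cells, kept in medium with 15% serum and with LIF, a cytokine that maintains self-renewal, at 1000 IU/ml. The null_EB group were embryoid bodies, cell clusters that formed within 24 to 36 h when C57Bl/6 CD47 null lung endothelial cells, after 6 months of passaging, were plated in serum-free basal medium. The null_EC group were C57Bl/6 CD47 null lung endothelial cells in endothelial growth medium, and WT_EC were wild-type C57Bl/6 lung endothelial cells in that medium. CD47 is a cell surface receptor for thrombospondin-1. Between ESC, null_EB and the endothelial cells, medium, serum and growth form differ along with the cells and cannot be told apart from them, and no passage number is given for null_EC or WT_EC. Nothing in the labels ties replicates to separate animals or cultures, so p-values measure the spread between these samples, which may be technical.

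In most cells p53 is made and destroyed continuously, since its target Mdm2 encodes the ligase that marks it for degradation. DNA damage, lost nutrients or oncogene activity slow this loop, p53 accumulates, and it switches on genes that halt the cell cycle, repair DNA, change metabolism or start cell death. Some genes counted in the p53 response, such as Gtse1, Psrc1 and Ckap2, are also expressed with the mitotic cycle. Mouse embryonic stem cells are known for abundant p53 protein and for a short G1 phase.

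Stretches of 250 bases upstream of RefSeq gene starts (build GRCm38.p6) were searched for the p53 half-site, the 10-base consensus that 1 p53 dimer binds, which reads alike on both strands. Of the 37 measured members 29 had an upstream stretch, and 8 of these 29 genes (27.6%) held a half-site in 1 of their stretches, beside 8.2% of all genes and 7.13% of all 32851 stretches. They were Aen, Ccng1, Ckap2, Ei24, Gadd45a, Mdm2, Polk and Sesn1. A match is a description of these letters. Introns, where some p53 sites lie, were not searched as such. The stretches of Polk (chr13:96519188-96519437) and Sesn1 (chr10:41887189-41887438) lie inside the span of their gene, upstream of a start within it. Below, 4 stretches are shown, those of the feedback genes Mdm2 (chr10:117710759-117711008) and Ccng1 (chr11:40755287-40755536), and those of Gadd45a (chr6:67037408-67037657) and Ckap2 (chr8:22185820-22186069), which had the largest differences between groups among the 8. All 4 lie on the minus strand, are written 5′ to 3′ up to the base before the start, and have the half-site in capitals.
Mdm2: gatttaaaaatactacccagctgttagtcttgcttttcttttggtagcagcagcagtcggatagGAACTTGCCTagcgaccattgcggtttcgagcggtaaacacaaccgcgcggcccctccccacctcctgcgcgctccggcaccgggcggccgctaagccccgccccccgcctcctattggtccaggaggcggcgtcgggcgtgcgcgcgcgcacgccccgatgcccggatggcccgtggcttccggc
Ccng1: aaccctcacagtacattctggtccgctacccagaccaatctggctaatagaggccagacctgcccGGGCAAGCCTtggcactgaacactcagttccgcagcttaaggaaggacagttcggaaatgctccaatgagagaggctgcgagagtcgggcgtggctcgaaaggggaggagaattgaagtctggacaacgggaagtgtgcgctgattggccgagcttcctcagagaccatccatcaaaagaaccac
Gadd45a: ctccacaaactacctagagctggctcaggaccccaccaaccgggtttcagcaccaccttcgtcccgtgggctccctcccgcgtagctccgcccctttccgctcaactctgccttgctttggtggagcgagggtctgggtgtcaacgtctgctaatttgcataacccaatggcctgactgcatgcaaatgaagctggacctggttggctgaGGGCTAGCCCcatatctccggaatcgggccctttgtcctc
Ckap2: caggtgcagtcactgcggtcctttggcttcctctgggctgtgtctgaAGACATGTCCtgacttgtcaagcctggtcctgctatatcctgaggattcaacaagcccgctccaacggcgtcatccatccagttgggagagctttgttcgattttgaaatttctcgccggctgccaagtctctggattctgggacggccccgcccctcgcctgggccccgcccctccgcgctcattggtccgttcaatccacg
The half-site began 186 bases before the start in Mdm2, 185 in Ccng1, 40 in Gadd45a and 203 in Ckap2.

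All levels below are on the log2 scale, a group's level is its mean ± SD (n = 3 arrays), and a difference comes with the limma standard error (SE). Array medians over all probe sets lay between 7.66 and 7.75. The WT_EC arrays spread most, with a median SD over the members of 0.282, against 0.0897 in ESC, 0.0718 in null_EB and 0.0857 in null_EC. The pluripotency markers had medians of 11.94 to 12.01 in ESC, against 6.62 to 6.63 in null_EB, 6.66 to 6.79 in null_EC and 6.49 to 6.80 in WT_EC. Endothelial markers differed in direction: Cdh5, the cadherin of endothelial junctions, had 7.02, 6.96 and 6.94 in ESC, 7.01, 7.09 and 7.04 in null_EB, 7.27, 7.11 and 7.09 in null_EC and 9.10, 6.85 and 9.52 in WT_EC. In both null groups and on WT_EC 2 it was thus near its level in ESC. Kdr, a receptor for vascular endothelial growth factor, had 6.98, 6.84 and 6.91 in ESC, 7.35, 7.26 and 7.40 in null_EB, 10.83, 10.74 and 10.52 in null_EC and 8.51, 8.61 and 9.35 in WT_EC, highest in null_EC. ESC was not low in every endothelial marker. Pecam1 averaged 8.86 in ESC, 6.56 in null_EB, 6.59 in null_EC and 6.94 in WT_EC. Tek averaged 8.67 in ESC, 6.83 in null_EB, 6.82 in null_EC and 6.75 in WT_EC. Of the 8 endothelial markers 1 was higher (Kdr) and 1 lower (Flt1) in null_EC than in WT_EC, beside 8.12% and 5.00% of all genes. The list median was 7.61 to 7.74 in ESC, 7.13 to 7.20 in null_EB, 7.29 to 7.30 in null_EC and 7.08 to 8.74 in WT_EC. Immune markers stood at 6.69 to 6.73 in ESC, 6.82 to 6.84 in null_EB, 6.83 to 6.99 in null_EC and 6.75 to 9.62 in WT_EC, highest on WT_EC 3, and mesothelial markers at 7.79 to 7.84 in ESC, 11.28 to 11.44 in null_EB, 12.13 to 12.21 in null_EC and 10.83 to 12.12 in WT_EC. The targeted gene Cd47 had 11.23, 10.96 and 11.33 in ESC, 10.99, 10.89 and 10.93 in null_EB, 10.97, 11.11 and 11.02 in null_EC and 12.59, 11.29 and 12.48 in WT_EC. It was 2.12-fold lower (log2 difference -1.09, SE 0.27, adjusted p = 0.0228) in null_EC than in WT_EC, where WT_EC 2 was closest to the null arrays, and was not called in ESC, which is not labelled null, against null_EC (log2 difference 0.14, adjusted p = 0.691). The part of the gene its probe set covers is not known here, so its level is a limited check of the labels. In whole cultures, fewer cells of a type and less RNA per cell cannot be told apart.

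**Figure D1:**
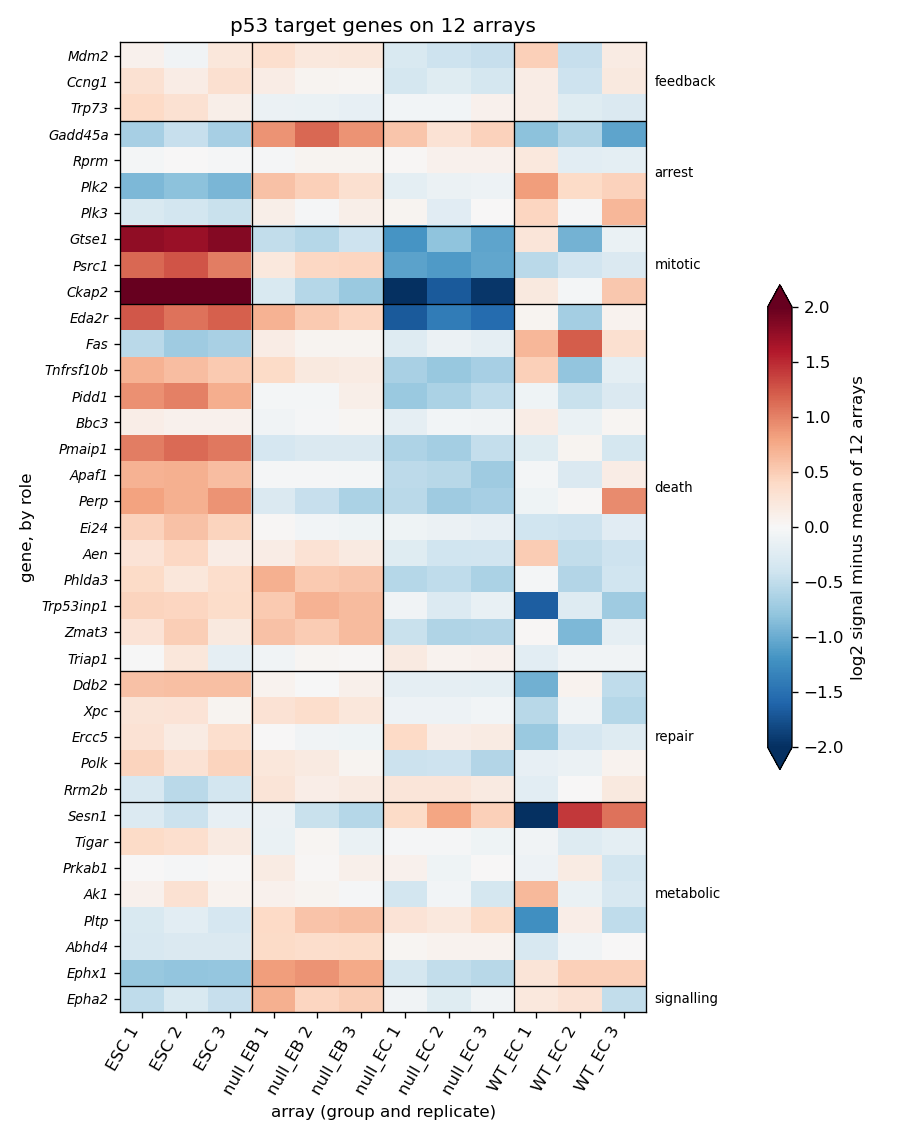
Log2 signal of the 37 measured p53 targets (rows, grouped by role) on the 12 arrays (columns), minus each gene's mean over the arrays, with red above and blue below that mean; colours saturate at 2. The null_EC columns are mostly blue, ESC stands out in the mitotic and death genes, and the WT_EC columns differ from each other, as in Sesn1 with 7.68, 11.26 and 10.92 in WT_EC.

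Compared with CD47 null endothelial cells, embryoid bodies had higher signals of many p53 targets. Of the 37 members 12 rose in null_EB against null_EC and 0 fell, where a gene is called at a limma p adjusted over all genes by Benjamini-Hochberg below 0.05. Over all 19938 genes 5.40% were called, 2.90% higher and 2.50% lower. At an unadjusted p below that threshold 21 members were higher and 1 was lower. The share of all genes at an unadjusted p was not counted, here or for later counts of this kind, and shares of called genes are not comparable with them. The median member differed by 0.37 on the log2 scale, beside -0.01 for all genes. Eda2r, Psrc1, Ckap2, Ephx1, Phlda3 and Zmat3 rose by more than 1 on the log2 scale. In a fit without the widely spread WT_EC arrays, which do not enter this comparison but share in its error, 25 members rose and 2 fell (Sesn1 and Ercc5), beside 25.4% of all genes called, 13.7% higher and 11.7% lower. Cell type markers moved in this comparison too. Of the 8 endothelial markers 0 were higher and 1 was lower, Kdr (10.3-fold, log2 difference -3.36, SE 0.184, adjusted p = 8.04e-06). Without WT_EC arrays in the fit 1 was higher and 2 were lower. Flt1 had 9.04, 8.97 and 9.08 in null_EB, above 8.30, 8.64 and 8.43 in null_EC. Of the mesothelial markers 2 of 6 (Wt1 and Lrrn4) and of the fibroblast markers 1 of 6 (Col1a1) were lower, or 5 of 6 and 4 of 6 without WT_EC arrays in the fit. Their part in the differences of the members was not tested. Below, a gene said not to be called is so in the fit of all 12 arrays unless another is named. The arrays of the groups did not overlap for 30 of the 37 members, beside 41.1% of all genes.

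In null_EC against WT_EC, 10 members fell and 2 rose, Gadd45a and Ercc5, beside 13.1% of all genes called, 5.00% lower and 8.12% higher. The groups did not overlap in 17 members, beside 25.5% of all genes. The members that fell were Plk2, Psrc1, Ckap2, Eda2r, Fas, Pmaip1, Apaf1, Perp, Polk and Ephx1, and the median over all 37 members was -0.21, beside 0.03 for all genes. With only the 6 arrays compared, 4 fell (Psrc1, Ckap2, Eda2r and Ephx1) and 1 rose (Gadd45a), beside 2.95% of all genes called in either direction. Without WT_EC 2 the counts were 18 lower and 6 higher, beside 27.3% of all genes called, 10.1% lower and 17.2% higher. That array had the lowest signal of the 3 WT_EC arrays in 17 of 37 members, and in 39.3% of all genes. Without WT_EC 1 the counts were 11 lower and 3 higher (17.3% of all genes, 7.25% lower and 10.1% higher). Without WT_EC 3 they were 11 lower and 4 higher (15.6% of all genes, 6.06% lower and 9.49% higher). Markers of other cells moved with this comparison: immune markers had 1 of 7 lower, fibroblast markers 2 of 6 lower and mesothelial markers 3 of 6 higher, and their part in these differences was not tested. The comparisons of null_EB with null_EC and of null_EC with WT_EC share the null_EC arrays.

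Embryoid bodies were also set against wild-type cells. In null_EB against WT_EC 11 members rose and 3 fell (Ckap2, Fas and Perp), beside 18.5% of all genes called, 12.3% higher and 6.19% lower, with a median of 0.20 over the members and 0.02 over all genes. The 11 were Gadd45a, Psrc1, Eda2r, Ei24, Phlda3, Trp53inp1, Zmat3, Xpc, Pltp, Abhd4 and Ephx1. Psrc1, Eda2r and Ephx1 were thus called lower in null_EC and higher in null_EB when each group was set against WT_EC. In null_EB against WT_EC the housekeeping shift left Eda2r (log2 difference 0.70, adjusted p = 0.0997) and Ephx1 (0.40, adjusted p = 0.0558) not called. Eda2r was also not called there without null_EB 1 (adjusted p = 0.0647) or null_EB 2 (adjusted p = 0.0536). With the 6 arrays alone 3 members rose (Gadd45a, Psrc1 and Phlda3) and 0 fell, beside 4.36% of all genes called. At an unadjusted p below 0.05 in this fit 13 members were higher and 3 lower, a threshold at which all genes were not counted. The groups did not overlap in 17 members, beside 28.3% of all genes. Cell type markers differed here as well. Fibroblast markers had 4 of 6 lower, endothelial 2 of 8, immune 1 of 7 and mesothelial 0 of 6, beside 6.19% of all genes. In these 4 lists 0 were higher, beside 12.3% of all genes. Their part in the differences of the members was not tested.

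ESC differed from every other group in more members, within a comparison where a large share of all genes differed. Against null_EB 13 members rose and 9 fell, beside 44.8% of all genes called, 21.8% higher and 23.0% lower. Against null_EC 17 rose and 5 fell, beside 47.9%, 22.9% higher and 25.1% lower. Against WT_EC 18 rose and 5 fell, beside 47.1%, 25.4% higher and 21.7% lower. Without the WT_EC arrays in the fit 16 rose and 12 fell against null_EB (beside 64.6% of all genes, 28.8% higher and 35.8% lower), and 23 rose and 10 fell against null_EC (beside 66.8%, 29.4% higher and 37.4% lower). The groups did not overlap in 30, 34 and 22 members against null_EB, null_EC and WT_EC, beside 67.4%, 72.2% and 51.5% of all genes. The split depended on scaling. With arrays shifted to equal housekeeping medians, 7 rose and 11 fell against null_EB (beside 46.9% of all genes, 13.5% higher and 33.3% lower). It left 13 higher and 7 lower against null_EC (beside 41.7%, 15.8% higher and 25.9% lower), and 12 higher and 7 lower against WT_EC (beside 52.3%, 15.4% higher and 36.9% lower). This shift moved the median of all genes to -0.32, -0.25 and -0.34 in the 3 comparisons, against -0.08, -0.09 and -0.07 as deposited, and to -0.08 against 0.03 in null_EC against WT_EC. ESC had the highest group mean in 19 of the 37 members (31% of all genes) and null_EB in 11 (22%). The lowest mean was that of null_EC in 17 members (13.1% of all genes), of WT_EC in 11 (23.2%), of ESC in 7 (48.5%) and of null_EB in 2 (15.1%).

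**Figure D2:**
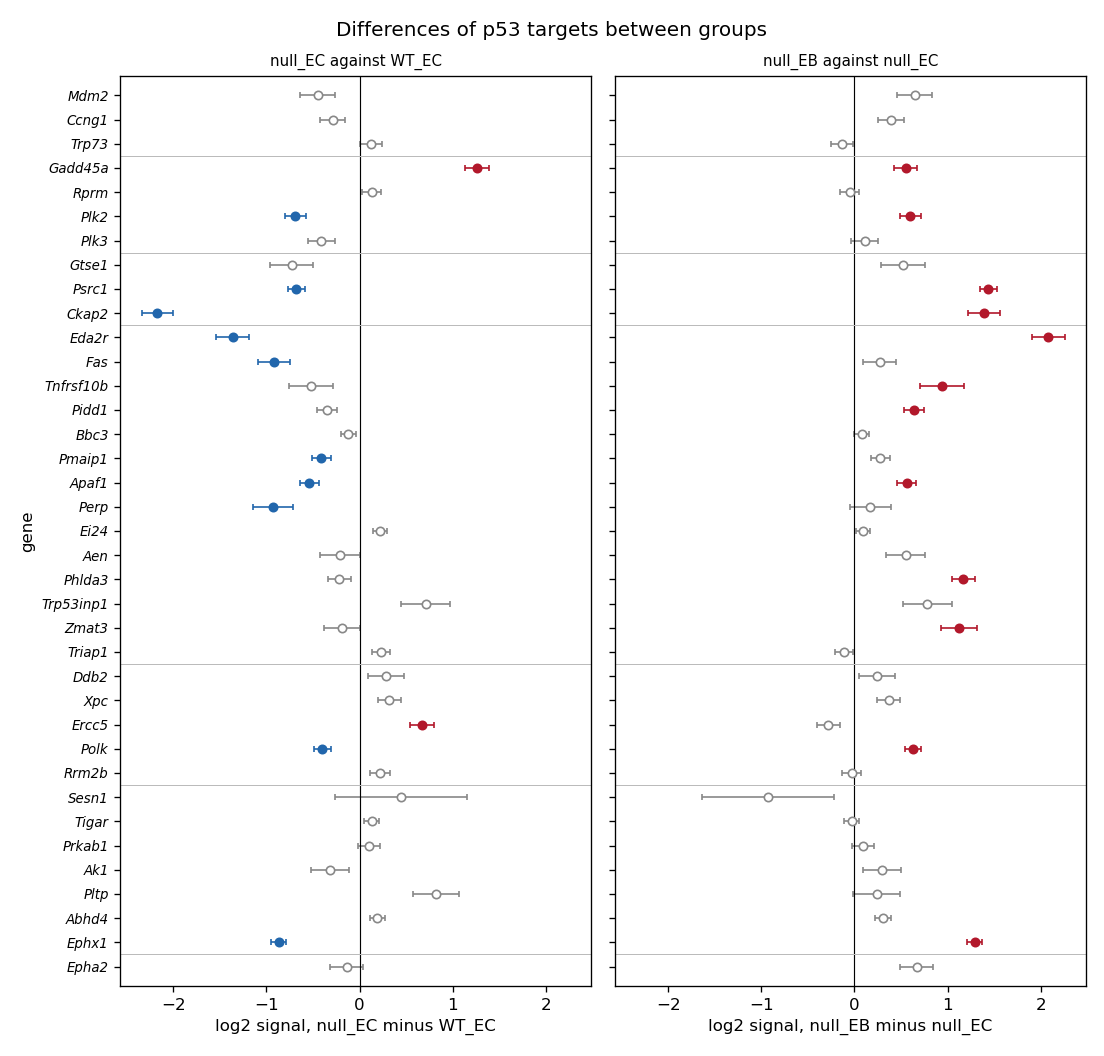
Log2 differences of the 37 members in null_EC against WT_EC (left) and null_EB against null_EC (right), with standard errors; filled red points were called higher, filled blue points lower, and open grey points were not called. On the left 10 points are blue and 2 red, and on the right 12 are red and 0 blue.

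Among the feedback genes, Mdm2, the ligase that degrades p53, had signals of 11.46, 11.30 and 11.59 in ESC, 11.71, 11.58 and 11.59 in null_EB, 11.07, 10.96 and 10.91 in null_EC and 11.84, 10.91 and 11.53 in WT_EC. The null_EB arrays were all above the null_EC arrays, while the WT_EC arrays spread across the range of both, with WT_EC 2 at the level of null_EC. Mdm2 was not called in null_EB against null_EC (log2 difference 0.65, adjusted p = 0.0781), nor in null_EC against WT_EC (log2 difference -0.45, adjusted p = 0.155). It was called higher in null_EB without the WT_EC arrays in the fit (log2 difference 0.65, adjusted p = 5.67e-05), and lower in null_EC without WT_EC 2 (log2 difference -0.71, adjusted p = 0.0012). Ccng1, cyclin G1, which helps to activate Mdm2, had 13.10, 12.94 and 13.12 in ESC, 12.94, 12.85 and 12.84 in null_EB, 12.44, 12.56 and 12.45 in null_EC and 12.95, 12.39 and 13.00 in WT_EC. It showed the same order of the null groups, with WT_EC 2 again lowest in its group. Ccng1 was 1.49-fold higher (log2 difference 0.57, SE 0.138, adjusted p = 0.00528) in ESC than in null_EC, and not called there under the housekeeping shift (log2 difference 0.41, adjusted p = 0.15). It was not called in null_EB against null_EC (log2 difference 0.39, adjusted p = 0.146), but was called higher without WT_EC arrays in the fit (log2 difference 0.39, adjusted p = 0.000691), with the 6 arrays alone (adjusted p = 0.000761) and with array weights (adjusted p = 5.29e-05). Trp73, a p53 relative, had low signal in every group, with means from 7.14 in null_EB to 7.55 in ESC, where the median of all gene values was 8.01. It was 1.33-fold higher (log2 difference 0.41, SE 0.116, adjusted p = 0.014) in ESC than in null_EB, and was not called without ESC 1 (adjusted p = 0.0596) or under the housekeeping shift (adjusted p = 0.441).

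The arrest genes did not move as 1 group. Gadd45a, a growth arrest gene that acts at the G2 checkpoint, had 9.17, 9.38 and 9.17 in ESC, 10.73, 10.98 and 10.74 in null_EB, 10.39, 10.12 and 10.30 in null_EC and 9.01, 9.24 and 8.78 in WT_EC. Both null groups stood above every array of the other groups, and null_EB above null_EC. Gadd45a was 2.4-fold higher (log2 difference 1.26, SE 0.126, adjusted p = 0.000117) in null_EC than in WT_EC, 1.46-fold higher (log2 difference 0.55, SE 0.126, adjusted p = 0.0318) in null_EB than in null_EC, and 2.98-fold lower (log2 difference -1.58, SE 0.126, adjusted p = 1.71e-06) in ESC than in null_EB. The call in null_EB against null_EC was lost on leaving out any 1 of the 6 arrays, with adjusted p from 0.0638 to 0.150. Plk2, a polo-like kinase of the stress response, had 9.01, 9.09 and 8.99 in ESC, 10.50, 10.39 and 10.23 in null_EB, 9.72, 9.79 and 9.81 in null_EC and 10.75, 10.29 and 10.37 in WT_EC. ESC was lowest and null_EC next, without overlap between these and the other groups. Plk2 was 1.62-fold lower (log2 difference -0.69, SE 0.115, adjusted p = 0.00264) in null_EC than in WT_EC, 1.51-fold higher (log2 difference 0.60, SE 0.115, adjusted p = 0.0132) in null_EB than in null_EC, and 2.54-fold lower (log2 difference -1.35, SE 0.115, adjusted p = 2.88e-06) in ESC than in null_EB. It was not called in null_EB against null_EC without any 1 of the 6 arrays but null_EB 3 (adjusted p from 0.0508 to 0.0652), or under the housekeeping shift (log2 difference 0.68, adjusted p = 0.078). Its relative Plk3 was lower in ESC (8.59 ± 0.0715) than in null_EB (9.02 ± 0.0776; log2 difference -0.43, SE 0.148, adjusted p = 0.0351), a call lost without any 1 of those 6 arrays, and it was not called between the other 3 groups. Rprm, a G2 arrest gene, had low signal, from 7.25 to 7.39 in group means, and was called in none of the 6 comparisons by limma; at an unadjusted p below 0.05 the count was also 0. Without WT_EC 1 it was called higher in null_EC than in WT_EC (log2 difference 0.27, adjusted p = 0.0095), in null_EB than in WT_EC (0.22, adjusted p = 0.0191) and in ESC than in WT_EC (0.19, adjusted p = 0.0202).

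**Figure D3:**
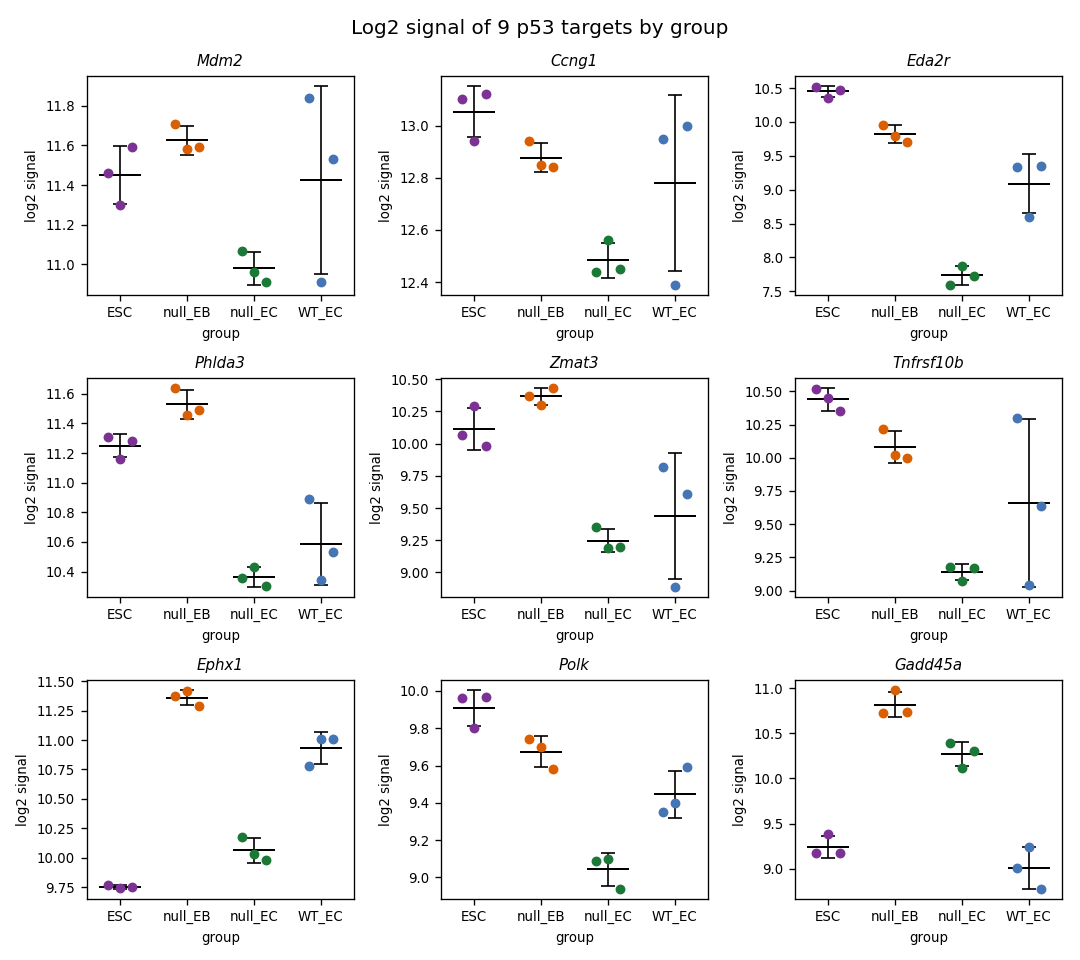
Log2 signal by group of 9 p53 targets, with 1 point per array, a line at the mean and bars of 1 SD (n = 3); axes differ between panels and do not start at 0. The 9 genes were picked from the members. In all 9 panels the null_EB points lie above the null_EC points, with Eda2r at 9.82 ± 0.13 against 7.73 ± 0.139. Mdm2 and Ccng1 were not called in that comparison. Among members not shown, Sesn1, Ercc5, Trp73 and Triap1 had every null_EB array below every null_EC array, and others overlapped.

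The members tied to the spindle and the mitotic cycle had their highest group mean in ESC and their lowest in null_EC. Ckap2, a spindle protein, had 10.77, 10.68 and 10.87 in ESC, 8.23, 7.96 and 7.79 in null_EB, 6.36, 6.85 and 6.59 in null_EC and 8.73, 8.50 and 9.08 in WT_EC. The 4 groups did not overlap. It was 4.51-fold lower (log2 difference -2.17, SE 0.169, adjusted p = 2.77e-05) in null_EC than in WT_EC, 2.63-fold higher (log2 difference 1.39, SE 0.169, adjusted p = 0.00111) in null_EB than in null_EC, and 6.87-fold higher (log2 difference 2.78, SE 0.169, adjusted p = 2.05e-07) in ESC than in null_EB. Its null_EC values were below those of the pluripotency gene Nanog in the same cells (7.06, 6.98 and 6.93 in null_EC), and with background unknown the folds against null_EC are uncertain. Psrc1, which binds spindle microtubules, had 11.57, 11.69 and 11.45 in ESC, 10.64, 10.84 and 10.85 in null_EB, 9.35, 9.29 and 9.38 in null_EC and 9.88, 10.05 and 10.13 in WT_EC. Here null_EB stood above WT_EC, whereas for Ckap2 it stood below. Psrc1 was 1.61-fold lower (log2 difference -0.68, SE 0.0935, adjusted p = 0.000841) in null_EC than in WT_EC, 2.71-fold higher (log2 difference 1.44, SE 0.0935, adjusted p = 2.21e-05) in null_EB than in null_EC, 1.68-fold higher (log2 difference 0.75, SE 0.0935, adjusted p = 0.000461) in null_EB than in WT_EC, and 1.74-fold higher (log2 difference 0.80, SE 0.0935, adjusted p = 3.64e-05) in ESC than in null_EB. Gtse1, a G2 and S phase protein that restrains p53, had 10.36, 10.32 and 10.42 in ESC, 8.10, 8.02 and 8.17 in null_EB, 7.41, 7.78 and 7.54 in null_EC and 8.83, 7.64 and 8.46 in WT_EC. WT_EC 2 lay within the null_EC range. Gtse1 was 4.82-fold higher (log2 difference 2.27, SE 0.233, adjusted p = 1.25e-05) in ESC than in null_EB, and not called in null_EC against WT_EC (log2 difference -0.73, adjusted p = 0.0649) or null_EB against null_EC (log2 difference 0.52, adjusted p = 0.276). It was called lower in null_EC than in WT_EC without WT_EC 2 (log2 difference -1.07, adjusted p = 0.00017) and with array weights (adjusted p = 0.0272). It was called higher in null_EB than in null_EC without WT_EC arrays in the fit (log2 difference 0.52, adjusted p = 0.000509), with the 6 arrays alone (adjusted p = 0.00162) and with array weights (adjusted p = 0.000292).

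A list of 17 measured cell cycle genes moved with these members in some comparisons and not in others. Its median was 11.85 to 11.94 in ESC, 8.06 to 8.63 in null_EB, 7.70 to 8.10 in null_EC and 9.16 to 9.91 in WT_EC. All 17 were higher in ESC than in null_EB (21.8% of all genes), while 15 of 17 were lower in null_EC than in WT_EC (5.00% of all genes). In null_EB against WT_EC 13 of 17 were lower and 0 higher (6.19% and 12.3% of all genes), where Ckap2 was lower, Psrc1 higher and Gtse1 not called. In null_EB against null_EC, where Ckap2 and Psrc1 rose, none of the 17 was called by limma (3 were higher at an unadjusted p below 0.05). Without the WT_EC arrays in the fit 6 were called higher there, beside 13.7% of all genes. The part of the cell cycle in the differences of Ckap2, Psrc1 and Gtse1 was not tested.

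**Figure D4:**
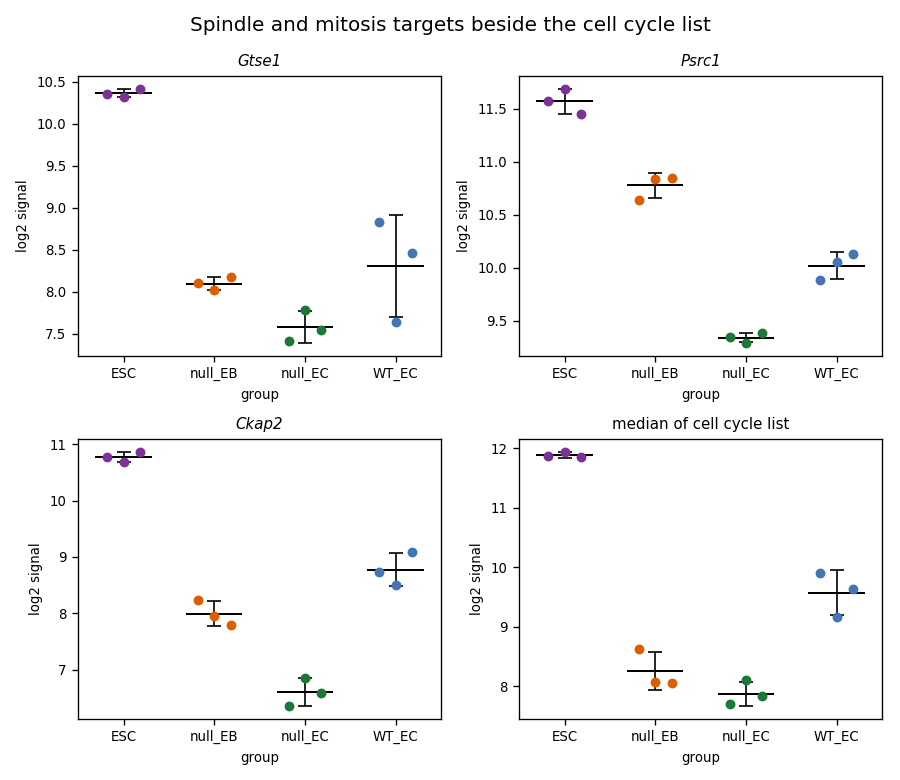
Log2 signal by group of Gtse1, Psrc1 and Ckap2 and the median of 17 cell cycle genes, with 1 point per array, a line at the mean and bars of 1 SD (n = 3). ESC is highest in each panel; Psrc1 is higher in null_EB (10.78) than in WT_EC (10.02), unlike the cell cycle median.

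Of the 14 death genes, 6 rose and 0 fell in null_EB against null_EC (9 at an unadjusted p below 0.05 were higher and 0 lower), beside 2.90% of all genes higher and 2.50% lower. In the fit without the WT_EC arrays 10 rose, beside 13.7% of all genes higher. In null_EC against WT_EC 5 fell and 0 rose, beside 5.00% of all genes lower and 8.12% higher. Eda2r, a receptor of the tumour necrosis factor family that binds ectodysplasin A2, had the largest difference of all members in null_EB against null_EC. Its signals were 10.52, 10.36 and 10.47 in ESC, 9.96, 9.79 and 9.70 in null_EB, 7.60, 7.87 and 7.73 in null_EC and 9.33, 8.59 and 9.35 in WT_EC. Each null_EB array was above every null_EC and WT_EC array and below every ESC array. Eda2r was 4.24-fold higher (log2 difference 2.08, SE 0.177, adjusted p = 0.000127) in null_EB than in null_EC, 2.56-fold lower (log2 difference -1.36, SE 0.177, adjusted p = 0.000619) in null_EC than in WT_EC, and 1.55-fold higher (log2 difference 0.64, SE 0.177, adjusted p = 0.0125) in ESC than in null_EB. The call against null_EB in ESC was lost with the housekeeping shift (log2 difference 0.40, adjusted p = 0.194) and without null_EB 3 (adjusted p = 0.0502).

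Tnfrsf10b, the mouse receptor for the ligand TRAIL, had 10.52, 10.45 and 10.35 in ESC, 10.22, 10.02 and 10.00 in null_EB, 9.18, 9.07 and 9.17 in null_EC and 10.30, 9.04 and 9.64 in WT_EC. The null_EC arrays were tight and low, as was WT_EC 2. It was 1.92-fold higher (log2 difference 0.94, SE 0.235, adjusted p = 0.0442) in null_EB than in null_EC, which was not called without any 1 of these 6 arrays (adjusted p from 0.123 to 0.159), and had a smaller p without the WT_EC arrays in the fit (log2 difference 0.94, adjusted p = 9.53e-07). Fas, the receptor for Fas ligand, had 7.39, 7.21 and 7.28 in ESC, 8.07, 7.97 and 7.97 in null_EB, 7.67, 7.80 and 7.74 in null_EC and 8.58, 9.14 and 8.24 in WT_EC. It was highest in WT_EC and lowest in ESC, with no overlap between the 4 groups. Fas was 1.89-fold lower (log2 difference -0.92, SE 0.174, adjusted p = 0.00569) in null_EC than in WT_EC and 1.64-fold lower (log2 difference -0.71, SE 0.174, adjusted p = 0.00614) in ESC than in null_EB. Pidd1, a scaffold that activates caspase-2, had 9.10, 9.20 and 8.92 in ESC, 8.16, 8.16 and 8.31 in null_EB, 7.45, 7.56 and 7.69 in null_EC and 8.11, 7.74 and 7.90 in WT_EC. Null_EB lay above null_EC and below ESC. It was 1.56-fold higher (log2 difference 0.64, SE 0.111, adjusted p = 0.00804) in null_EB than in null_EC and 1.82-fold higher (log2 difference 0.87, SE 0.111, adjusted p = 7.2e-05) in ESC than in null_EB. The first of these calls was lost with the housekeeping shift, though the difference was not smaller (log2 difference 0.72, adjusted p = 0.0664).

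Of the mitochondrial death pathway, Apaf1, the scaffold of the apoptosome, had 10.70, 10.71 and 10.62 in ESC, 9.98, 9.97 and 9.96 in null_EB, 9.48, 9.45 and 9.29 in null_EC and 9.96, 9.71 and 10.15 in WT_EC. ESC was above and null_EC below all other arrays, and WT_EC lay on both sides of null_EB. Apaf1 was 1.45-fold lower (log2 difference -0.54, SE 0.102, adjusted p = 0.00591) in null_EC than in WT_EC, 1.48-fold higher (log2 difference 0.56, SE 0.102, adjusted p = 0.0105) in null_EB than in null_EC and 1.64-fold higher (log2 difference 0.71, SE 0.102, adjusted p = 0.00017) in ESC than in null_EB. In null_EB against null_EC it was not called without null_EC 3 (adjusted p = 0.0595) or null_EB 2 (adjusted p = 0.0524), or with the housekeeping shift (log2 difference 0.64, adjusted p = 0.0853). Pmaip1, the BH3-only protein Noxa, had 9.05, 9.16 and 9.09 in ESC, 7.70, 7.75 and 7.75 in null_EB, 7.42, 7.36 and 7.56 in null_EC and 7.79, 8.09 and 7.68 in WT_EC. ESC stood apart from all other arrays. Pmaip1 was 2.58-fold higher (log2 difference 1.37, SE 0.1, adjusted p = 9.04e-07) in ESC than in null_EB and 1.32-fold lower (log2 difference -0.41, SE 0.1, adjusted p = 0.0224) in null_EC than in WT_EC, a call that was lost without null_EC 1 (adjusted p = 0.0865) or null_EC 2 (adjusted p = 0.0931). The second BH3-only gene, Bbc3 or Puma, had low signal with group means from 6.93 to 7.14 and was called in none of the 6 comparisons by limma (unadjusted p = 0.0275 in ESC against null_EC, higher). Without WT_EC arrays in the fit that difference was called (log2 0.21, adjusted p = 0.00871). Perp, a membrane protein of desmosomes and of p53-dependent death, had 10.25, 10.15 and 10.34 in ESC, 9.16, 8.98 and 8.82 in null_EB, 8.91, 8.74 and 8.79 in null_EC and 9.36, 9.47 and 10.39 in WT_EC. WT_EC 3 was at the level of ESC and the other WT_EC arrays were not. Perp was 1.9-fold lower (log2 difference -0.93, SE 0.219, adjusted p = 0.0183) in null_EC than in WT_EC and 2.4-fold higher (log2 difference 1.26, SE 0.219, adjusted p = 0.000654) in ESC than in null_EB. The lower signal in null_EC was not called without any 1 of its 3 arrays (adjusted p from 0.0528 to 0.0654).

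Phlda3, which holds back the survival kinase Akt, had 11.31, 11.16 and 11.28 in ESC, 11.64, 11.46 and 11.49 in null_EB, 10.36, 10.43 and 10.30 in null_EC and 10.89, 10.34 and 10.53 in WT_EC. All null_EB arrays were above every other array. Phlda3 was 2.25-fold higher (log2 difference 1.17, SE 0.124, adjusted p = 0.000492) in null_EB than in null_EC and 1.93-fold higher (log2 difference 0.95, SE 0.124, adjusted p = 0.000604) in null_EB than in WT_EC. Zmat3, an RNA-binding zinc finger protein, had 10.07, 10.29 and 9.98 in ESC, 10.37, 10.30 and 10.43 in null_EB, 9.35, 9.19 and 9.20 in null_EC and 9.82, 8.89 and 9.61 in WT_EC. ESC and null_EB were high and null_EC low, and WT_EC 2 was below null_EC. Zmat3 was 2.17-fold higher (log2 difference 1.12, SE 0.194, adjusted p = 0.00797) in null_EB than in null_EC and 1.9-fold higher (log2 difference 0.93, SE 0.194, adjusted p = 0.00783) in null_EB than in WT_EC. Trp53inp1, a stress protein that promotes p53 activity, had 12.43, 12.42 and 12.36 in ESC, 12.51, 12.68 and 12.62 in null_EB, 11.91, 11.72 and 11.84 in null_EC and 10.33, 11.73 and 11.28 in WT_EC. Null_EB was above every other array, and the WT_EC arrays spread widely, down to WT_EC 1. Trp53inp1 was 2.81-fold higher (log2 difference 1.49, SE 0.263, adjusted p = 0.00303) in null_EB than in WT_EC, and was not called in null_EB against null_EC (log2 difference 0.78, adjusted p = 0.128; log2 difference 0.78, adjusted p = 2.5e-06 without the WT_EC arrays in the fit).

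Smaller differences were found in the rest of the death genes. Ei24, a membrane protein of the endoplasmic reticulum, averaged 11.82 ± 0.0744 in ESC and 11.29 ± 0.0593 in null_EB. It was 1.45-fold higher (log2 difference 0.53, SE 0.0741, adjusted p = 0.000131) in ESC, and not called under the housekeeping shift (log2 difference 0.29, adjusted p = 0.105). Aen, an exonuclease of apoptosis, averaged 8.88 ± 0.0734 in null_EB and 8.33 ± 0.0823 in null_EC (log2 difference 0.55, adjusted p = 0.194; log2 difference 0.55, adjusted p = 0.00016 without WT_EC arrays in the fit), and its WT_EC arrays read 9.18, 8.18 and 8.26. Triap1, a survival factor, lay between 8.33 and 8.56 in group means and was called in none of the 6 comparisons by limma (unadjusted p = 0.0438 in null_EC against WT_EC, higher).

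The repair genes had 1 of 5 higher in null_EB against null_EC, beside 2.90% of all genes. In the fit without the WT_EC arrays 3 rose there (Polk, Ddb2 and Xpc) and 1 fell (Ercc5), beside 13.7% of all genes higher and 11.7% lower. In null_EC against WT_EC the repair genes had 1 higher and 1 lower, beside 8.12% and 5.00% of all genes. Polk, a polymerase that copies past damaged bases, had 9.96, 9.80 and 9.97 in ESC, 9.74, 9.70 and 9.58 in null_EB, 9.09, 9.10 and 8.94 in null_EC and 9.35, 9.40 and 9.59 in WT_EC. The null_EC arrays were below all others and ESC above all others. Polk was 1.55-fold higher (log2 difference 0.63, SE 0.088, adjusted p = 0.00264) in null_EB than in null_EC and 1.32-fold lower (log2 difference -0.40, SE 0.088, adjusted p = 0.0124) in null_EC than in WT_EC, the second not called without null_EC 3 (adjusted p = 0.0631). Ercc5, the endonuclease of nucleotide excision repair, had 10.55, 10.42 and 10.60 in ESC, 10.27, 10.19 and 10.17 in null_EB, 10.66, 10.39 and 10.43 in null_EC and 9.52, 9.93 and 10.01 in WT_EC. WT_EC was lowest, and null_EB lay between it and the null_EC arrays. Ercc5 was 1.59-fold higher (log2 difference 0.67, SE 0.124, adjusted p = 0.00494) in null_EC than in WT_EC. Its 2 partners in that pathway, the damage sensors Ddb2 and Xpc, were not called in null_EC against WT_EC (log2 0.28 and 0.32), but were called higher without WT_EC 2 (log2 0.55, adjusted p = 0.00443 for Ddb2 and log2 0.48, adjusted p = 0.00155 for Xpc). Ddb2 was highest in ESC (8.15 ± 0.00674, against 7.61 ± 0.0593 in null_EB; log2 difference 0.54, SE 0.192, adjusted p = 0.0395), which was not called without any 1 of those 6 arrays (adjusted p from 0.078 to 0.107). Xpc was 1.61-fold higher (log2 difference 0.69, SE 0.125, adjusted p = 0.00357) in null_EB than in WT_EC. In null_EB against null_EC Xpc was not called (log2 difference 0.37, adjusted p = 0.128). It was called higher there without WT_EC arrays in the fit (adjusted p = 0.00142) and under the housekeeping shift (log2 difference 0.45, adjusted p = 0.0374). Rrm2b, which supplies nucleotides for repair, had 8.75, 8.53 and 8.69 in ESC, 9.33, 9.19 and 9.25 in null_EB, 9.30, 9.31 and 9.24 in null_EC and 8.85, 9.08 and 9.26 in WT_EC. The 3 ESC arrays were below all others, and the other groups overlapped. Rrm2b was 1.52-fold lower (log2 difference -0.60, SE 0.104, adjusted p = 0.000634) in ESC than in null_EB, and was not called in null_EB against null_EC (log2 difference -0.03, adjusted p = 0.972).

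Of the 7 metabolic genes 1 rose and 0 fell in null_EB against null_EC, beside 2.90% of all genes higher and 2.50% lower. In the fit without the WT_EC arrays 4 rose and 1 fell (Sesn1), beside 13.7% of all genes higher and 11.7% lower. Among the 7 metabolic genes Ephx1, the microsomal epoxide hydrolase, moved most. It had 9.77, 9.74 and 9.75 in ESC, 11.37, 11.42 and 11.29 in null_EB, 10.18, 10.03 and 9.98 in null_EC and 10.78, 11.01 and 11.01 in WT_EC. The 4 groups did not overlap, with null_EB highest, then WT_EC, null_EC and ESC. Ephx1 was 2.45-fold higher (log2 difference 1.29, SE 0.0832, adjusted p = 2.21e-05) in null_EB than in null_EC, 1.83-fold lower (log2 difference -0.87, SE 0.0832, adjusted p = 9.34e-05) in null_EC than in WT_EC, and 3.04-fold lower (log2 difference -1.61, SE 0.0832, adjusted p = 5.99e-08) in ESC than in null_EB. Abhd4, a lipid hydrolase, had 10.66, 10.70 and 10.69 in ESC, 11.37, 11.34 and 11.36 in null_EB, 11.03, 11.05 and 11.06 in null_EC and 10.66, 10.92 and 11.00 in WT_EC. Null_EB was above all other arrays and null_EC next, and WT_EC 1 was at the level of ESC. Abhd4 was 1.41-fold higher (log2 difference 0.50, SE 0.0836, adjusted p = 0.00231) in null_EB than in WT_EC and 1.59-fold lower (log2 difference -0.67, SE 0.0836, adjusted p = 5.82e-05) in ESC than in null_EB. Pltp, a phospholipid carrier, had 10.45, 10.54 and 10.42 in ESC, 11.16, 11.33 and 11.36 in null_EB, 11.03, 10.97 and 11.13 in null_EC and 9.53, 10.89 and 10.25 in WT_EC. The WT_EC arrays were far apart. Pltp was 1.75-fold lower (log2 difference -0.81, SE 0.252, adjusted p = 0.0219) in ESC than in null_EB and 2.08-fold higher (log2 difference 1.06, SE 0.252, adjusted p = 0.0148) in null_EB than in WT_EC, the first lost without null_EB 2 or 3 or ESC 1 or 3 and the second without null_EB 2 or 3.

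Sesn1, a sestrin that restrains the growth kinase mTORC1, had 9.57, 9.41 and 9.67 in ESC, 9.72, 9.39 and 9.27 in null_EB, 10.22, 10.63 and 10.32 in null_EC and 7.68, 11.26 and 10.92 in WT_EC. WT_EC 1 was the lowest of all 12 arrays and the other 2 WT_EC arrays were the highest, and no comparison was called by limma (0 of 6 at an unadjusted p below 0.05). Without WT_EC arrays in the fit it was lower in null_EB than in null_EC (log2 difference -0.93, adjusted p = 1e-04), the opposite direction to most members. In null_EC against WT_EC its log2 difference was 0.44, and -0.70 without WT_EC 1 (adjusted p = 0.0156). Tigar, which lowers glycolysis, was 1.29-fold higher (log2 difference 0.37, SE 0.0833, adjusted p = 0.00389) in ESC than in null_EB, a call lost with the housekeeping shift (adjusted p = 0.496). Prkab1, a subunit of the energy sensor AMPK, and Ak1, an adenylate kinase, were called in none of the 6 comparisons by limma (0 of 12 tests at an unadjusted p below 0.05), and the WT_EC values of Ak1 ran from 10.07 to 11.04. Without WT_EC arrays in the fit Ak1 was called higher in null_EB than in null_EC (log2 difference 0.30, adjusted p = 0.0263) and in ESC than in null_EC (log2 difference 0.41, adjusted p = 0.0011). Without WT_EC 2 Prkab1 was called higher in null_EB than in WT_EC (log2 difference 0.33, adjusted p = 0.0201) and in ESC than in WT_EC (0.24, adjusted p = 0.0491), and under the housekeeping shift lower in ESC than in null_EB (-0.33, adjusted p = 0.0473). Epha2, an ephrin receptor kinase, had 9.22, 9.42 and 9.27 in ESC, 10.43, 10.16 and 10.21 in null_EB, 9.65, 9.49 and 9.65 in null_EC and 9.94, 10.02 and 9.24 in WT_EC. Null_EB was above all other arrays, and WT_EC 3 lay within the ESC range. Epha2 was 1.95-fold lower (log2 difference -0.96, SE 0.175, adjusted p = 0.000876) in ESC than in null_EB, and in null_EB against null_EC it was not called (log2 difference 0.67, adjusted p = 0.0512). It was called higher there without WT_EC arrays in the fit (log2 difference 0.67, adjusted p = 5.38e-05), with the 6 arrays alone (adjusted p = 0.000159), with array weights (adjusted p = 1.36e-05), under the housekeeping shift (adjusted p = 0.0413) and with dim genes filtered (adjusted p = 0.0464).

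**Figure D5:**
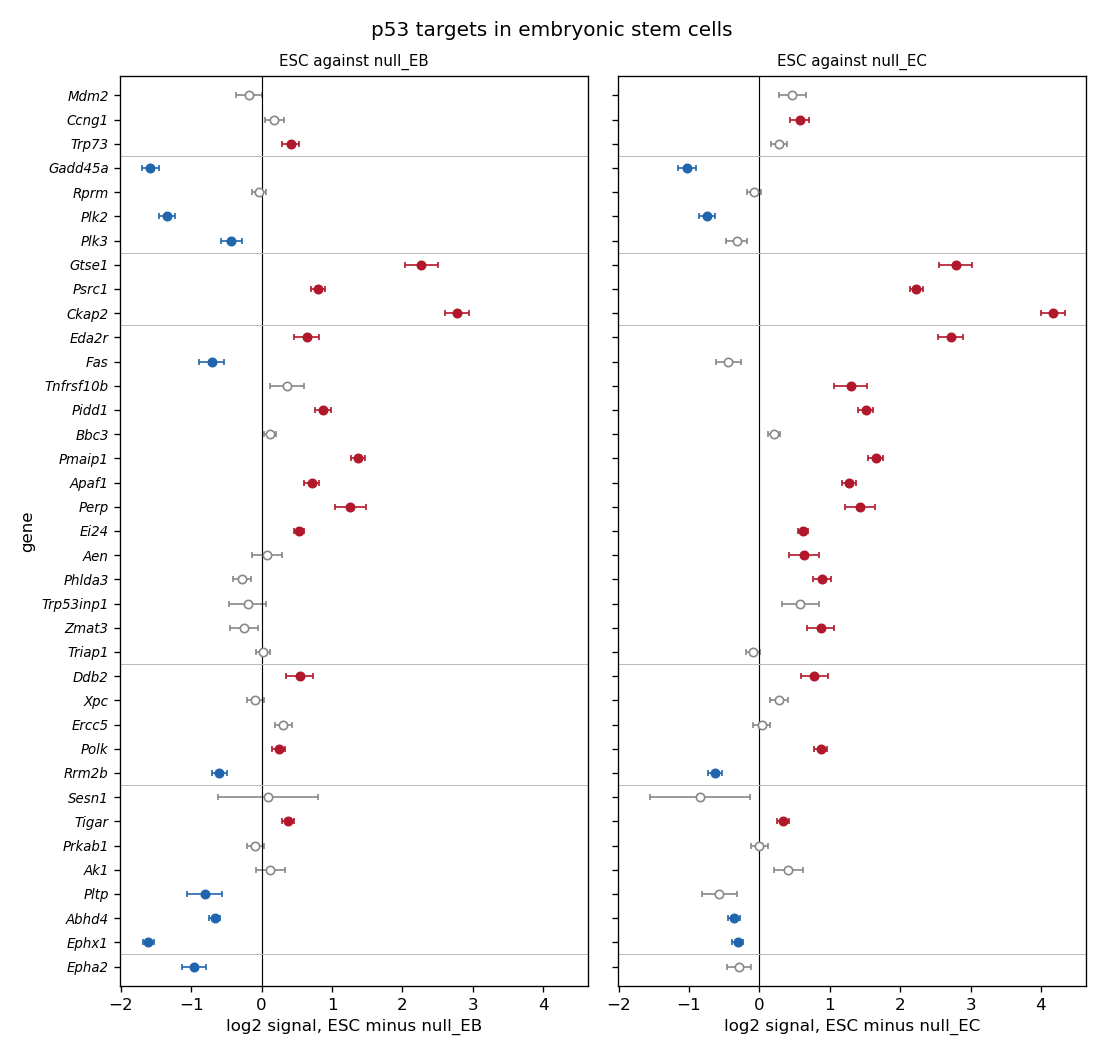
Log2 differences of the 37 members in ESC against null_EB (left) and against null_EC (right), with standard errors; filled red points were called higher, filled blue points lower, open grey points not called. Ckap2 lies furthest to the right in both (2.78 and 4.17), and Ephx1 and Gadd45a furthest to the left on the left side.

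Genes that act upstream of p53 or modify it were read from a list of 23, of which 22 were measured. In null_EB against null_EC 5 rose and 0 fell, beside 2.90% of all genes higher and 2.50% lower. At an unadjusted p below 0.05, 10 of the list were higher and 1 was lower. Among the 5 called by adjusted p, Hipk2, a kinase that phosphorylates p53, rose most (log2 difference 0.87, SE 0.155, adjusted p = 0.00888). Next among these 5 were the damage kinase Atm (log2 difference 0.51, SE 0.119, adjusted p = 0.032) and the damage mediator Mdc1 (log2 difference 0.42, SE 0.0898, adjusted p = 0.0232). In null_EC against WT_EC 2 fell, the checkpoint kinase Chek1 (log2 difference -1.66, SE 0.142, adjusted p = 5.03e-05) and the repair gene Brca1 (log2 difference -1.15, SE 0.112, adjusted p = 0.000103), and the ligase Rchy1 rose (log2 difference 0.50, SE 0.135, adjusted p = 0.0337). Over all genes 5.00% were called lower and 8.12% higher there. In null_EB against WT_EC 8 rose, led by Mdm4, Trp53bp1 and Kat5 (log2 0.69, 0.67 and 0.64), and Chek1 and Brca1 fell (log2 -1.15 and -0.93), beside 12.3% of all genes higher and 6.19% lower. In ESC against null_EB 12 rose and 4 fell, beside 21.8% of all genes higher and 23.0% lower. Brca1 and Chek1 were furthest up (log2 3.60 and 3.41) and Hipk2 furthest down (log2 -2.19, adjusted p = 6.79e-07). Mdm4, the partner of Mdm2, had 11.20, 11.24 and 11.13 in ESC, 10.61, 10.75 and 10.72 in null_EB, 10.44, 10.25 and 10.31 in null_EC and 9.60, 10.30 and 10.12 in WT_EC, and was 1.41-fold higher (log2 difference 0.50, SE 0.146, adjusted p = 0.0169) in ESC than in null_EB.

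Of 16 further p53 targets 12 were measured, and calls among them went in both directions. In null_EB against null_EC the sestrin Sesn2 (log2 difference 0.82, SE 0.208, adjusted p = 0.0475) and the thiamine carrier Slc19a2 (log2 difference 0.93, SE 0.201, adjusted p = 0.0247) rose, and Igfbp3, a binding protein of insulin-like growth factors, fell (log2 difference -1.87, SE 0.199, adjusted p = 0.00051). Over all genes 2.90% were called higher and 2.50% lower in this comparison. In null_EC against WT_EC Igfbp3 rose (log2 difference 1.95, SE 0.199, adjusted p = 0.000127), while the autophagy gene Dram1 (log2 difference -1.48, SE 0.104, adjusted p = 1.51e-05), the CD47 ligand Thbs1 (log2 difference -1.14, SE 0.18, adjusted p = 0.00203) and Pml, of nuclear bodies (log2 difference -0.55, SE 0.151, adjusted p = 0.0352), fell. Over all genes 8.12% were called higher and 5.00% lower here. In ESC against null_EB Sfn, the 14-3-3 protein sigma, rose most (log2 difference 1.83, SE 0.119, adjusted p = 3.63e-07) and Igfbp3 fell most (log2 difference -1.17, SE 0.199, adjusted p = 0.00057). In each direction 3 of the 12 were called, beside a similar share of all genes, 21.8% higher and 23.0% lower.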

How the data were processed

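The members, their roles and all gene lists were chosen with earlier results of these data known. Log2 signals per probe set were deposited by the authors, who made them with RMA in Affymetrix Expression Console 1.2.1, per the submitters' processing notes; RMA corrects background, scales arrays to equal distributions and summarises probes. The scanner files were not used here, so background level and detection are unknown. Probe sets with 1 gene symbol in the platform annotation were kept, and of several for a gene the brightest over the 12 arrays. The model had a mean for each group over the 12 arrays (limma 3.58.1 in R 4.3.3, lmFit and eBayes), and p-values were adjusted over 19938 genes by Benjamini-Hochberg at 0.05. The fit was tested on simulated data in which a gene had the same SD in every group, so that test does not cover the wider spread of the WT_EC arrays. Values on every array were given for members called and at least 1.5-fold different in null_EC against WT_EC, null_EB against null_EC or ESC against null_EB, and for Mdm2, Ccng1, Sesn1, Trp53inp1 and Mdm4, chosen after their values were seen. Precision rests on the number of arrays and the spread between them. Alternatives were a filter for log2 signal of at least 6 on 3 arrays, the 6 arrays of a comparison alone, array weights, a trended robust prior, a shift to equal housekeeping medians, the mean of probe sets, a replicate block, a fit without WT_EC arrays, and each array left out. Sequences came from RefSeq.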

Additional observations from a re-analysis of the deposited data

How the results depend on the processing

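Counts of called members and genes moved with the arrays in the fit, the array weights and the scaling. In null_EC against WT_EC the 6 arrays alone gave 588 genes with 1 member higher and 4 lower, array weights gave 4 members higher, and the housekeeping shift 1541 genes. In null_EB against null_EC the 6 arrays alone gave 5464 genes, array weights 8001, the fit without WT_EC arrays 5058 and the housekeeping shift 602, and the first 3 of these each gave 25 members higher and 2 lower. In null_EB against WT_EC the 6 arrays alone gave 870 genes with 3 members higher and 0 lower, and the housekeeping shift 2425 genes. In ESC against null_EB array weights gave 14866 genes and the housekeeping shift 7 members higher. In ESC against null_EC 10 members were lower under array weights, in the fit that left out WT_EC arrays and in that of the 6 arrays. In ESC against WT_EC the 6 arrays alone gave 6250 genes. With 1 array left out, genes, members higher and members lower ran from 1335 to 5435, 2 to 6 and 8 to 18 in null_EC against WT_EC, from 390 to 676, 8 to 10 and 0 to 0 in null_EB against null_EC, from 2026 to 6496, 8 to 16 and 1 to 5 in null_EB against WT_EC, from 7442 to 8194, 10 to 12 and 7 to 8 in ESC against null_EB, from 7997 to 8261, 16 to 18 and 5 to 5 in ESC against null_EC, and from 7973 to 11196, 16 to 21 and 5 to 7 in ESC against WT_EC. Turned directions were read only for members called in the main fit or in the alternative set against it, so members called in neither may also turn. Among those read, the direction turned for Sesn1 in null_EC against WT_EC (0.44 with all arrays, -0.70 to 1.09 with 1 array left out, the lowest without WT_EC 1) and for Polk in ESC against null_EB (-0.00 with the housekeeping shift, adjusted p = 0.993). The cause was not tested. Same-numbered arrays did not deviate together (correlations from -0.256 to 0.225 over 18 pairs, beside -0.262 to 0.221 over 36 pairs of unlike number); with the replicate number as a block the members called were 2 higher and 10 lower in null_EC against WT_EC (2239 genes), 12 and 0 in null_EB against null_EC (764 genes), 11 and 2 in null_EB against WT_EC (3256 genes), 12 and 9 in ESC against null_EB (8537 genes), 18 and 5 in ESC against null_EC (9149 genes), and 18 and 5 in ESC against WT_EC (8954 genes). Signal over background is not known, which limits the Ckap2 folds against null_EC and Trp73, Rprm and Bbc3, whose group means were all below the median gene value of 8.01.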
